A study of Mus musculus with 2 samples.

Results

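The cytosolic ribosome is built from 1 protein for almost every one of its ribosomal protein genes, and the messenger RNAs of these genes are among the most abundant in a cell. The family described here held the 89 genes, of 55487 in the expression table, whose symbols have the form Rpl or Rps with a number (with the endings a, l, x or y allowed), together with Rpsa, Rplp0, Rplp1 and Rplp2. Pseudogenes named with -ps and the Rps6k kinases were left out. There were 53 large subunit (Rpl) and 36 small subunit (Rps) genes. By RefSeq, 84 of the 89 were protein coding, and Rps4l, Rps12l1, Rpl6l, Rps3a2 and Rps3a3 were listed as pseudogenes. The rule does not reach ribosomal proteins with other kinds of symbol, such as Fau and Rack1.

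Many ribosomal protein transcripts begin with a run of pyrimidines, the 5′ terminal oligopyrimidine (TOP) tract, through which mTOR signalling controls their translation together with that of elongation factors. Resting naive T cells hold a store of such transcripts and make little protein until they are activated, when translation and ribosome assembly increase. A few family members have a paralog that can take the place of the main protein in the ribosome. Rps27 and Rps27l are such a pair, and RPS27L is known in human cells as a target of p53.

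The study profiled CD4+ T cells of Treg-bmal1KO and Treg-bmal1WT mice, named for the presence of Bmal1, the core circadian activator, in regulatory T cells (Tregs). The strain of all samples is given as C57BL/6 Foxp3.Cre-YFP, in which the Foxp3 locus drives Cre and YFP. The animals were kept in rooms with a reversed light cycle, and cells came from visceral adipose tissue (VAT, 34000 sorted cells) and spleen (32000 sorted cells) at ZT0 or ZT12, hours after lights on. Cells were marked with hashtag antibodies, and all cells were pooled into 1 single-cell 3′ expression library, with a second library of the hashtags. The number of animals and their age are not given in the sources used here.

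Hashtags are named by number alone, so hashtags 1 to 6 could not be tied to a tissue, genotype or time. The design has 8 combinations of these, more than the 6 hashtags used, so how hashtags map to combinations is not settled. Hashtags are not replicates, and no test was run. Values are given for each hashtag, and comparisons were made between T cell types within a hashtag. Counts are unique molecular identifiers (UMIs), each standing for 1 captured transcript, and CPM, counts per 10 to the power of 6, is the UMIs of a gene scaled to the same total in every sum of cells. A 3′ assay counts molecules and not fragments, so these levels are not divided by transcript length. Intervals are 95% intervals, exact Clopper-Pearson for shares and exact Poisson for CPM, and cover counting error only.

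The table held 22960 barcodes, of which 13599 had a single hashtag, at least 500 genes and under 10% mitochondrial UMIs. Of these, 11336 passed as T cells by 2 or more UMIs of T cell receptor, CD3 and Cd4 genes with under 2 UMIs of 19 markers of other cells. Gates were then set by marker genes outside the family. They gave 215 proliferating cells (cell cycle genes such as Mki67 and Top2a), 1863 ST2 Tregs (Il1rl1, the IL-33 receptor, with a Treg marker), 645 non-proliferating cells with a Foxp3 UMI (called Foxp3 Tregs here, ST2 Tregs included), 3608 Th1-type cells (such as Cxcr3, Ifng, Tbx21), 871 naive-type cells (such as Ccr7 and Lef1) and 4453 other T cells. Cd3e was detected in 73.6% to 93.0% of cells in every gate and Cd4 in 39.3% to 61.4%. Barcodes outside the T gate had 73.8% and 42.5%, within those ranges. Both genes count towards the T gate, so their levels do not test it. Cd8a was detected in no cell of the gates, against 0.22% of barcodes outside the T gate. Cd79a of B cells stood at 0.29 to 1.22 CPM, against 35.2 CPM outside the T gate. Others remained in the gates, with Cd8b1 in 1.0% to 3.7% of cells and Lyz2 in 2.3% to 4.1%. Dcn was in 3.4% to 5.4% of cells and Pecam1 in 5.6% to 19.6%. A Foxp3 UMI was seen in 17.1% of ST2 Tregs. Cd8a, Cd79a, Cd8b1, Lyz2, Dcn and Pecam1 were markers used by the T gate to remove cells, so their levels describe the gate.

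Promoters bear on the family because its members are expressed together, and the Rps27 pair is shown because the results below turn on it. RefSeq promoter windows on GRCm38.p6 ran from 250 bases before to 50 bases after the annotated start, and 64 of the 89 genes had an entry. A C followed by at least 5 further pyrimidines, on the gene's strand within 20 bases of the start, occurred in 67.2% of the 64 members and in 36.0% of the 27025 genes in the table. CCGGAAG, the core of ETS factor sites, was found on either strand in 40.6% of members and 9.93% of all genes. AAGATGGC, the core of YY1 sites, was found on either strand in 9.38% of members and 3.19% of all genes. Overlaps between the motifs were allowed. The windows below show 200 bases before and 30 bases from the start, with these motifs in capitals. Rps27 lies on the minus strand at chr3:90213619-90213848 and Rps27l on the plus strand at chr9:66945886-66946115.
Rps27: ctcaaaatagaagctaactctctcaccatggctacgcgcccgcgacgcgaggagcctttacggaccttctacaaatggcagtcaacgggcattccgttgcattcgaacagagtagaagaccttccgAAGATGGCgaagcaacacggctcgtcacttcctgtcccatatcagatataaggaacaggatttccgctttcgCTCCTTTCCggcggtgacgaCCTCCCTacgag
Rps27l: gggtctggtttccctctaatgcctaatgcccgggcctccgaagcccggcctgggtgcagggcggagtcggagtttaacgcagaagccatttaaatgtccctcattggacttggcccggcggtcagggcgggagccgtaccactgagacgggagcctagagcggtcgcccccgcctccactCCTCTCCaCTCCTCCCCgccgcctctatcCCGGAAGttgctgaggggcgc
The Rps27 window held AAGATGGC and a pyrimidine run at the start and no CCGGAAG. The Rps27l window held pyrimidine runs and CCGGAAG and no AAGATGGC. RefSeq lists a second Rps27l start, whose window held none of the 3 motifs.

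In T cells the family took 11886240 of 37992186 UMIs, a share of 31.3% (interval 31.3% to 31.3%). Of the 89 genes, 80 reached 10 CPM over all T cells, all 80 reached 50 CPM, and 70 reached 1000 CPM. The most abundant were Rps29 at 12470 CPM, Rps24 at 11090, Rps27 at 10530, Rplp1 at 9076 and Rpl37a at 9056 CPM. Together these took 16.7% of the family's UMIs. Rplp1 encodes an acidic protein of the stalk that recruits elongation factors, and the others are core proteins of the small (Rps) and large (Rpl) subunit. At the low end of the 80, Rps27l stood at 149 CPM and Rpl7l1, related to the yeast assembly factor Rlp7, at 56.1 CPM.

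The 9 members under 10 CPM were mostly paralogs known from other tissues or pseudogenes. Rpl10l, a testis paralog of Rpl10 in mice, had 0 UMIs, and Rpl3l, the striated muscle paralog of Rpl3, had 1. Rps12l1 had 5 UMIs and Rpl32l had 51. Rps3a2, Rpl39l, Rps4l, Rps3a3 and Rpl6l lay between 155 and 221 UMIs, or 4.08 to 5.82 CPM. The paralog usage read here therefore rests on Rps27l, Rpl22l1 and Rpl7l1, which were the paralogs at 10 CPM or more.

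The ribosomal share was highest in naive-type cells and lower in every other gate of the same hashtag. In naive-type cells it was 37.1%, 42.03%, 42.2%, 41.2% and 43.3% in hashtags 1, 3, 4, 5 and 6, and 37.7% in the 19 cells of hashtag 2. Th1-type cells had 26.1%, 25.9%, 28.0%, 27.6%, 29.2% and 30.3% in hashtags 1 to 6. In Foxp3 Tregs the shares were 24.2%, 24.1%, 27.0%, 22.7%, 32.0% and 34.5%.
Naive-type shares did not overlap with those of Th1-type cells or Foxp3 Tregs. ST2 Tregs had 24.0%, 24.3%, 26.3%, 24.1%, 32.7% and 33.8% in hashtags 1 to 6. Proliferating cells had 24.1%, 22.2%, 23.9%, 23.6% and 30.2% in hashtags 1 to 5, and 26.6% in the 16 cells of hashtag 6. Other T cells had 29.6%, 28.6%, 32.8%, 30.9%, 36.4% and 39.5%. Shares were highest in hashtags 5 and 6 in both Treg gates, in Th1-type cells, where the range was narrow, and in other T cells, and barcodes outside the T gate had 34.5% and 35.2% there against 20.2% to 23.8% in hashtags 1 to 4. Each share rests on at least 61964 UMIs, and no interval was wider than 0.77 percentage points.

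**Figure D1:**
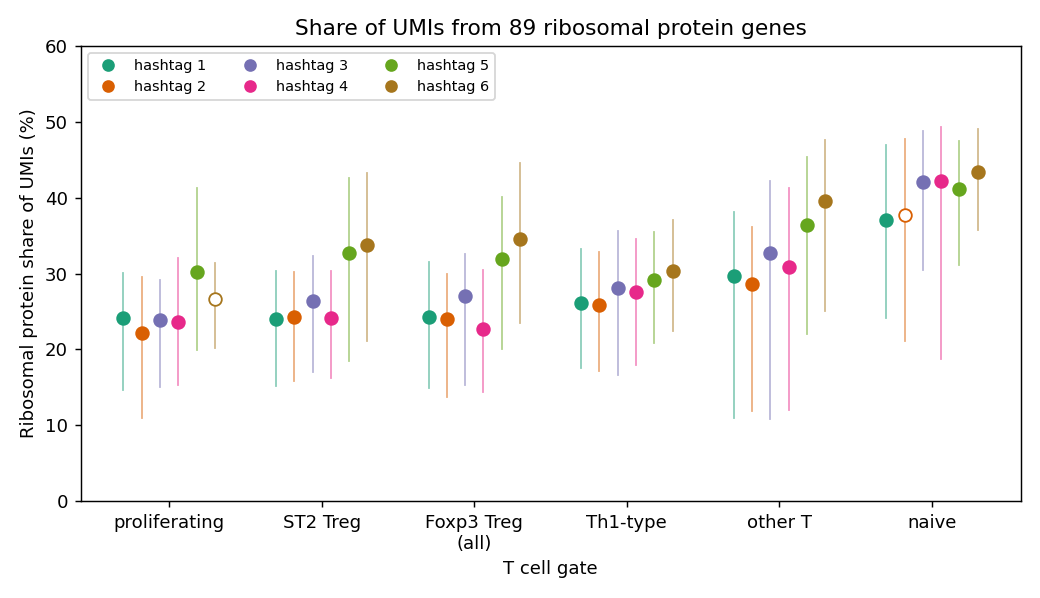
Share of UMIs from the 89 ribosomal protein genes (y axis, percent) for each T cell gate (x axis) and hashtag (colour); points are shares of summed UMIs, thin lines run from the 10th to the 90th percentile of single cells, and open points have under 20 cells. Naive-type cells lie between 37.1% and 43.3%, above all points of the other gates except the highest of other T cells (39.5%), and hashtags 5 and 6 lie highest in the ST2 Treg, Foxp3 Treg, Th1-type and other T gates.

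The same contrast held when transcripts were counted per cell. Naive-type cells carried 1091 to 1805 ribosomal UMIs per cell over 5 hashtags, while Th1-type cells carried 686 to 949 and Foxp3 Tregs 830 to 1243. Across hashtags the Foxp3 Treg range overlapped the naive-type one, and within each of the 5 hashtags Foxp3 Tregs were lower. Other UMIs per cell were 1944 to 2185 in Th1-type and 1849 to 2360 in naive-type cells, ranges that overlap. Foxp3 Tregs had more of these other UMIs, 2357 to 2832 per cell. The large subunit's part of family UMIs was 50.5% to 52.7% in Foxp3 Tregs, 50.4% to 51.2% in Th1-type cells and 49.5% to 50.1% in naive-type cells. Transcripts of both subunits therefore took nearly equal parts in all gates.

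Foxp3 Tregs had a lower ribosomal share than naive-type cells in all 5 hashtags with at least 20 cells in both gates, and most single members were lower. The log2 ratio of shares was -0.62, -0.64, -0.90, -0.37 and -0.33 in hashtags 1, 3, 4, 5 and 6, with a median of -0.62. Of 80 members, 77 had a median log2 ratio of CPM below 0, and 75 were lower in every hashtag. A gene is called here when its median over hashtags is past 1.5-fold and its sign is the same in every hashtag used. By that rule 36 members were called lower and 0 higher, while over all 7383 genes at 10 CPM or more 2.61% were called lower and 12.5% higher (15.1% either way). Among genes outside the family at 100 CPM or more, closer to the members in level, the shares were 2.92% and 17.2%. The 36 held 20 small subunit and 16 large subunit genes.

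The 6 members furthest down in Foxp3 Tregs were all of the small subunit. Rps29, a small zinc-binding protein, had 8220, 8953, 7583, 11900 and 12970 CPM in Foxp3 Tregs of hashtags 1, 3, 4, 5 and 6, against 16560, 18600, 18690, 18040 and 18920 CPM in naive-type cells. The gates did not overlap, and the median log2 ratio was -1.01 (range -1.30 to -0.55). Rps19, mutated in human Diamond-Blackfan anaemia, had 3427, 4044, 3256, 4962 and 5375 CPM in Foxp3 Tregs, against 6513, 7537, 7424, 7167 and 7742 CPM in naive-type cells. Its median log2 ratio was -0.90, again with no overlap. Rps20, Rps16, Rps27 and Rps28 followed at -0.89, -0.81, -0.81 and -0.81.

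Among members with the same sign in every hashtag, those nearest to naive-type cells were Rpl41 at a log2 ratio of -0.26, Rpl22l1 at -0.27, Rpl27 and Rpl4 at -0.28, Rpl39 at -0.33 and Rpl37a at -0.34, all lower and none called. All 6 are large subunit genes or paralogs of one. Members of mixed sign lay nearer to 0, with Rpl29 at 0.04, Rpl7a at -0.10, Rpl7l1 at 0.18 and Rpl24 at -0.25. The median was -0.54 over the 48 large subunit and -0.62 over the 32 small subunit genes at 10 CPM or more. After subtracting the log2 ratio of the family's share, 69 of the 80 members lay within 0.25 of 0.

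Rps27l went the other way in Foxp3 Tregs. It had 215, 229, 196, 144 and 114 CPM in Foxp3 Tregs of hashtags 1, 3, 4, 5 and 6, against 83.0, 71.2, 79.1, 118 and 120 CPM in naive-type cells. It was higher in Foxp3 Tregs of hashtags 1, 3 and 4, by log2 ratios of 1.31, 1.63 and 1.26, and near equal in hashtags 5 and 6, at 0.30 and -0.04. The gate differed in make-up between hashtags: 82 of 191, 59 of 122 and 26 of 89 Foxp3 Tregs of hashtags 1, 3 and 4 were outside the ST2 gate, against 69 of 77 and 47 of 51 in hashtags 5 and 6. Those outside it had 176, 198, 113, 142 and 125 CPM of Rps27l in hashtags 1, 3, 4, 5 and 6, the value of hashtag 4 resting on 9 UMIs. The naive-type values of hashtags 1, 3 and 4 rest on 10 or 11 UMIs each. After every cell was thinned to 1500 UMIs the median was 0.52, against 1.26 before.

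The size of the Treg difference depends on the hashtags used. Hashtags 5 and 6, the only ones with at least 50 cells in both gates, gave a share ratio of -0.35 and 1 member called in place of 36. Without hashtag 1, 3 or 4 the count was 19, 16 or 15. The shares of all genes called with these sets of hashtags were not taken. Malat1, a nuclear RNA, stood at 39440 to 47620 CPM in Foxp3 Tregs and 32560 to 41670 CPM in naive-type cells, and mitochondrial UMIs at 2.12% to 2.38% and 1.89% to 2.57%; their part in the result was not tested. Cell by cell, the median share was 22.5%, 24.9%, 21.8%, 30.4% and 33.6% in Foxp3 Tregs of hashtags 1, 3, 4, 5 and 6, against 32.9%, 42.7%, 41.9%, 41.9% and 43.7% in naive-type cells.

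Th1-type cells likewise had a lower ribosomal share than naive-type cells, with a narrower range. The log2 ratio was -0.51, -0.58, -0.61, -0.50 and -0.52 in hashtags 1, 3, 4, 5 and 6. Of 80 members 76 were lower in every hashtag, and 20 were called lower, 10 of each subunit, with 0 called higher. Over all 7355 genes compared 2.68% were called lower and 13.1% higher (15.8% either way). Among genes outside the family at 100 CPM or more the shares were 2.74% and 16.3%. This comparison uses the same naive-type cells as the one with Foxp3 Tregs, so the 2 are not independent.

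Rps20 had 3691, 3930, 3973, 4332 and 4441 CPM in Th1-type cells of hashtags 1, 3, 4, 5 and 6, against 6853, 7964, 7984, 8084 and 8435 CPM in naive-type cells. Its log2 ratio was -0.93 with a range of -1.02 to -0.89, and the gates did not overlap. Rps19 stood at -0.92, Rpl35, a protein near the exit of the nascent chain tunnel, at -0.85, Rps29 at -0.77, Rplp0, the anchor of the ribosomal stalk, at -0.75, and Rps26 at -0.73. Among members with the same sign in every hashtag the smallest were Rpl27 at -0.17, Rpl38 at -0.28, Rpl13a at -0.29, and Rps12 and Rpl24 at -0.34. Of mixed sign were Rpl7a at -0.15, Rpl29 at -0.17 and Rpl7l1 at 0.18. Rps27l was higher in Th1-type cells in all 5 hashtags, with a median of 0.48 (range 0.24 to 0.70), and was not called.

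Counts in both comparisons with naive-type cells shift with the scaling. With CPM the median gene stood 0.24 above 0 in Foxp3 Tregs and 0.25 above 0 in Th1-type cells. With size factors from the median of ratios these medians were 0.04 and 0.03, and the members called lower numbered 58 in Foxp3 Tregs and 70 in Th1-type cells. Over all 7383 and 7355 genes, those called lower numbered 362 and 386 with these size factors, against 193 and 197 by CPM. Among all genes called, 82.7% were higher in Foxp3 Tregs and 83.1% in Th1-type cells by CPM, against 60.1% and 58.4% by median of ratios. The family median was below 0 under both, at -0.57 and -0.68 in Foxp3 Tregs and at -0.51 and -0.74 in Th1-type cells.

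Depth also moves with the share inside a gate. In Th1-type cells split into 5 equal bins by UMI total, the median share was 21.6% in the shallowest and 29.9% in the deepest bin. In naive-type cells it was 32.0% and 45.1%. Thinning every cell to 1500 UMIs before gating gave share ratios of -0.72 for Foxp3 Tregs and -0.57 for Th1-type cells against naive-type cells, both further from 0 than before.

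**Figure D2:**
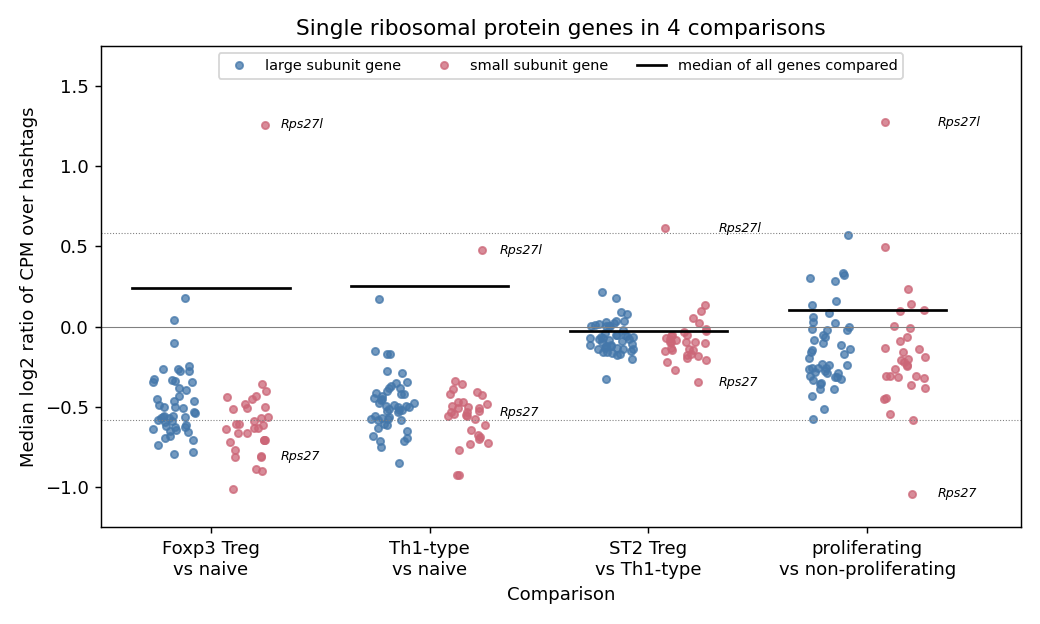
Median log2 ratio of CPM over hashtags (y axis) for each of the 80 members at 10 CPM or more in 4 comparisons (x axis), with large subunit genes in blue and small subunit genes in red. Black bars give the median of all genes compared and dotted lines mark 1.5-fold; members lie mostly below the bars against naive-type cells, with Rps27l at 1.26 and 0.48 in those 2 comparisons.

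ST2 Tregs and Th1-type cells differed little. The log2 ratio of shares was -0.12, -0.09, -0.09, -0.19, 0.16 and 0.16 in hashtags 1 to 6, so ST2 Tregs were lower in hashtags 1 to 4 and higher in hashtags 5 and 6. None of the 80 members was called, while 4.96% of all 7656 genes were called, 2.23% lower and 2.73% higher. Outside the family, 2.64% of genes at 100 CPM or more were called lower and 3.68% higher. Rps27 had 6968, 6943, 7912, 7037, 10940 and 12890 CPM in ST2 Tregs, against 9405, 9237, 9628, 9462, 10930 and 10960 CPM in Th1-type cells. It was lower in ST2 Tregs of hashtags 1 to 4 by log2 ratios of -0.43 to -0.28, and was 0.00 and 0.23 in hashtags 5 and 6.

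Rpl39, which lines the exit tunnel, and Rpl37a were higher in ST2 Tregs in all 6 hashtags, at median log2 ratios of 0.18 and 0.08, and Rpl27 was lower in all 6 at -0.16. Rps27l again stood out, with 209, 196, 188, 200, 158 and 77.5 CPM in ST2 Tregs, against 139, 111, 121, 107, 164 and 141 CPM in Th1-type cells. It was higher in ST2 Tregs of hashtags 1 to 4 by 0.58 to 0.90 and not in hashtags 5 and 6, at -0.03 and -0.80, where the 77.5 CPM rests on 11 UMIs.

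The ST2 gate of hashtags 5 and 6 needs care. An Il1rl1 UMI was present in 4.54% and 4.73% of their T cells, no more than the 5.32% and 6.35% of their barcodes outside the T gate, which had median depths of 3842 and 4044 UMIs against 3399 and 3721 UMIs in the T cells. In hashtags 1 to 4 it was 22.1% to 41.7% of T cells and 19.8% to 35.8% of barcodes outside the gate, and Cd3e was present in 73.8% of all barcodes outside the gate, so these cannot tell free RNA from expression in either set of hashtags. After thinning to 1500 UMIs, hashtag 5 had a share of 25.6% in 22 ST2 Tregs and 28.4% in Th1-type cells, the opposite order to the unthinned values, and hashtag 6 had under 20 ST2 Tregs left.

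Proliferating cells differed from the other T cells in the make-up of the family more than in its size. Their share was lower than that of all non-proliferating T cells by log2 ratios of -0.14, -0.22, -0.30, -0.22 and -0.24 in hashtags 1 to 5. That reference includes naive-type and other T cells, which had the highest shares. Proliferating cells had 24.1%, 22.2%, 23.9%, 23.6% and 30.2%. Th1-type cells had 26.1%, 25.9%, 28.0%, 27.6% and 29.2%, lower than proliferating cells in hashtag 5. ST2 Tregs had 24.0%, 24.3%, 26.3%, 24.1% and 32.7%, near the proliferating value in hashtags 1 and 4. The part of gate make-up in the difference was not tested. Of 80 members, 1 was called lower and 1 higher, against 5.11% and 13.7% of all 7725 genes (18.8% either way), and 7.39% and 21.7% of genes outside the family at 100 CPM or more. Those were Rps27 and its paralog Rps27l. For single members apart from this pair the difference was under 1.5-fold.

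Rps27 encodes a zinc-binding protein of the small subunit. It had 4200, 4060, 4824, 4403 and 7585 CPM in proliferating cells of hashtags 1 to 5, against 9103, 8439, 9938, 8848 and 12500 CPM in non-proliferating T cells. The median log2 ratio was -1.04 (range -1.12 to -0.72), and the proliferating value lay below that of every other gate of the same hashtag. Rps27l had 372, 384, 357, 293 and 277 CPM in proliferating cells, against 154, 152, 132, 146 and 135 CPM in non-proliferating cells. Its median log2 ratio was 1.27 (range 1.02 to 1.44), with no overlap between the gates. The 16 proliferating cells of hashtag 6, too few to enter the median, had 5982 CPM of Rps27 and 336 CPM of Rps27l, against 13320 and 126 CPM in its non-proliferating cells.

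**Figure D3:**
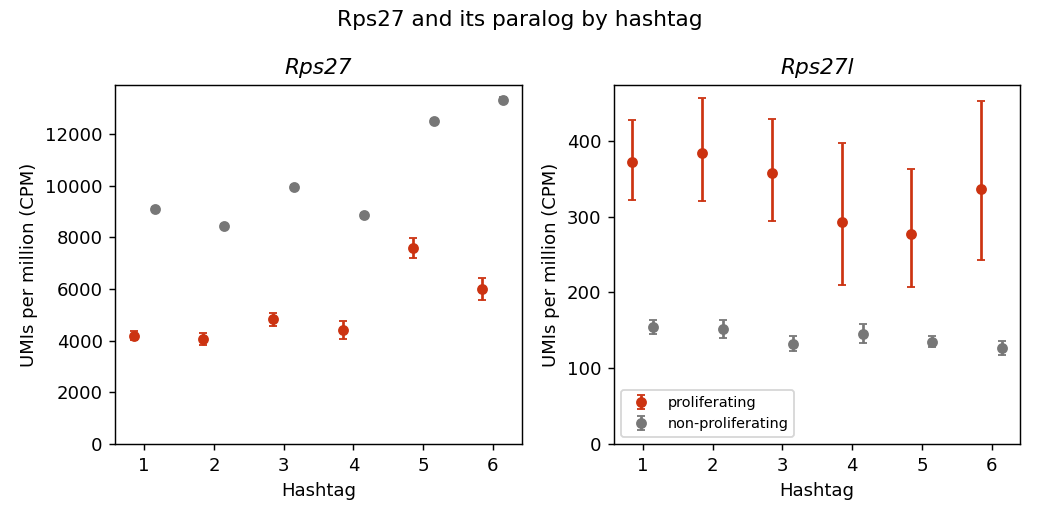
CPM (y axes, linear from 0) of Rps27 (left panel) and Rps27l (right panel) in proliferating (red) and non-proliferating (grey) T cells of each hashtag (x axis), with exact Poisson intervals. In all 6 hashtags Rps27 is lower and Rps27l higher in the proliferating cells.

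As a share of the pair's UMIs, Rps27l made up 8.14%, 8.65%, 6.89%, 6.24%, 3.52% and 5.32% in proliferating cells of hashtags 1 to 6. In Foxp3 Tregs it made up 2.96%, 3.07%, 2.79%, 3.16%, 1.36% and 0.92%. Th1-type cells had 1.12% to 1.48%, and naive-type cells 0.51% to 0.89%. ST2 Tregs made up much of the Foxp3 gate in hashtags 1 to 4 and had 2.91%, 2.75%, 2.33%, 2.76%, 1.43% and 0.60%, and Foxp3 Tregs outside the ST2 gate had 2.17%, 2.34%, 2.21%, 1.60%, 1.34% and 1.02%. Proliferating cells thus lay above all other gates in every hashtag. Even at its highest Rps27l was a minor part of the pair.

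The other pairs differed less. Rpl22 is needed for the development of αβ T cells in mice and restrains Rpl22l1 there. Rpl22l1 made up 23.2% to 26.0% of the pair in proliferating cells, 17.8% to 24.6% in Foxp3 Tregs, 20.7% to 22.4% in Th1-type cells and 18.5% to 21.8% in naive-type cells. Its log2 ratio in proliferating cells was 0.08 by CPM, -0.03 with median-of-ratios scaling and -0.09 after thinning, so its level has no settled direction. In non-proliferating cells Rpl22l1 made up 21.1% to 22.3% of the pair, less than in proliferating cells of the same hashtag in every hashtag. The intervals overlapped in hashtags 1, 2 and 4. Rpl7l1 stood at 0.33 (range -0.02 to 0.49) in the same comparison, beside -0.14 for Rpl7.

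Relative to the rest of the family, other members differed in proliferating cells too. Rps24, Rpl12, Rps21, Rpl30 and Rps16 were lower by log2 ratios of CPM of -0.58, -0.58, -0.55, -0.51 and -0.45, in every hashtag. Rpl28 at 0.57, Rplp0 at 0.32, Rpl31 at 0.30 and Rpl41 at 0.29 were higher in every hashtag. Rpl28 had 3356, 3220, 3117, 3309 and 3981 CPM in proliferating cells of hashtags 1 to 5, against 2171, 2168, 2396, 2227 and 3347 CPM in non-proliferating cells. Within the family 57 of 80 members lay within 0.25 of the shared ratio, against 69, 71 and 77 for Foxp3 Treg against naive-type, Th1-type against naive-type and ST2 Treg against Th1-type cells.

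**Figure D4:**
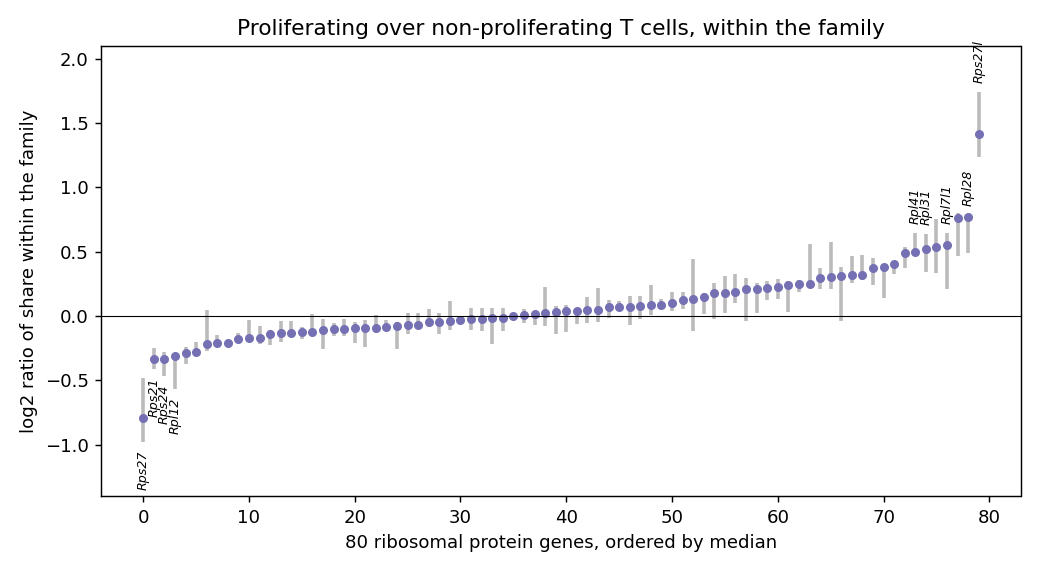
Log2 ratio of each member's share of family UMIs, proliferating over non-proliferating T cells (y axis), for 80 members in order of their median (x axis); points are medians over 5 hashtags and bars the range. Rps27 lies at -0.79 and Rps27l at 1.41, with Rpl28 at 0.77.

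Proliferating cells were deeper, with a median of 5740 to 7767 UMIs per cell over 5 hashtags against 2707 to 3695 over 6 hashtags in non-proliferating cells, and their Malat1 level was 15180 to 21810 CPM against 39300 to 46070 CPM. Thinning to 1500 UMIs left 3 hashtags with at least 20 proliferating cells. It gave a share ratio of -0.37, 10 members called in place of 2, Rps27 at -1.11, Rps27l at 1.08 and Rpl28 at 0.46. The share of all genes called after thinning was not taken. Median-of-ratios scaling called 8 members, which were 7 lower and 1 higher. Of all 7725 genes it called 682 lower and 797 higher, against 395 and 1060 by CPM. Among all genes called 53.9% were then higher, against 72.9% by CPM.

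Between hashtags of 1 gate single members differed little in Th1-type cells. None of the 80 was past 1.5-fold of the mean of the other hashtags there, in any of the 6 hashtags, while in hashtags 1 to 6 the shares of all 7628 genes were 3.5%, 7.01%, 4.16%, 9.98%, 11.3% and 14.8%. Other T cells likewise had 0 members past it, beside 5.35%, 12.5%, 5.47%, 9.98%, 9.05% and 13.2% of all genes. In ST2 Tregs, hashtag 6 had 4 members higher and 2 lower, and hashtag 5 had 2 higher, beside 39.6% and 39.2% of all genes. Rps27, Rps29, Rpl28 and Rpl35a were higher in hashtag 6, by log2 ratios of 0.60 to 0.69, and Rps27l and Rpl29 lower by -1.26 and -0.62. Rpl35 and Rpl29 were higher in hashtag 5, at 0.61 and 0.63. In ST2 Tregs of hashtags 1 to 4 the count of members was 0, beside 10.7%, 14.7%, 11.9% and 14.5% of all genes. ST2 Tregs numbered 53 in hashtag 5 and 36 in hashtag 6.

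In Foxp3 Tregs hashtag 6 had Rps15a, Rps27, Rps16, Rpl35a and Rpl12 higher, by 0.60 to 0.69, and Rps27l and Rpl7l1 lower, by -0.81 and -1.18, beside 39.8% of all 7620 genes. Hashtags 1 to 5 had 0 members past 1.5-fold, beside 18.0%, 24.8%, 20.4%, 28.7% and 34.5% of all genes. In naive-type cells Rpl7l1 was lower in hashtag 1, at -0.65 beside 39.2% of all genes, and Rpl29 higher in hashtag 4, at 0.60 beside 37.6%. Hashtags 3, 5 and 6 had 0, beside 36.0%, 18.2% and 19.7%. Shares of members past 1.5-fold were thus below those of all genes. All genes here reach down to 10 CPM, where counting error is larger, while 70 members reached 1000 CPM over all T cells. No share among genes of like level was taken between hashtags, so the part of level in this difference was not tested. The share of the whole family spanned hashtags by 1.17-fold in Th1-type and in naive-type cells, by 1.41-fold in ST2 Tregs and by 1.52-fold in Foxp3 Tregs.

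From cell to cell Rpl29, at 691 CPM over all T cells, was the most uneven of the 80 members in Th1-type cells. Rpl29 is a large subunit protein whose loss mice survive. In 3608 Th1-type cells 35.0% had no Rpl29 UMI, where 23.1% would be without one if each cell drew Rpl29 in proportion to its ribosomal UMIs. The squared coefficient of variation beyond counting noise was 0.50 for Rpl29, against a median of 0.02 over the 80 members and 0.38 for Rps27l. The excess of cells at 0 was present in each hashtag, with 37.4%, 36.1%, 33.7%, 47.0%, 24.4% and 33.5% observed and 26.4%, 24.8%, 22.5%, 34.2%, 14.2% and 19.3% expected.

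The other gates gave a like picture. In ST2 Tregs 29.9% of cells lacked an Rpl29 UMI and 19.8% would be expected to. Rps27l had the largest spread of the 80 there, at 0.69, then Rpl7l1 at 0.59 and Rpl29 at 0.49. Most members had values near 0, at a median of 0.02 in ST2 Tregs and 0.01 in naive-type cells. In Th1-type cells Rpl7l1 stood at 0.33 and Rps2, a core small subunit protein, at 0.12. Rpl29 levels were 583, 654, 710, 485, 812 and 613 CPM in Th1-type cells of hashtags 1 to 6.

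**Figure D5:**
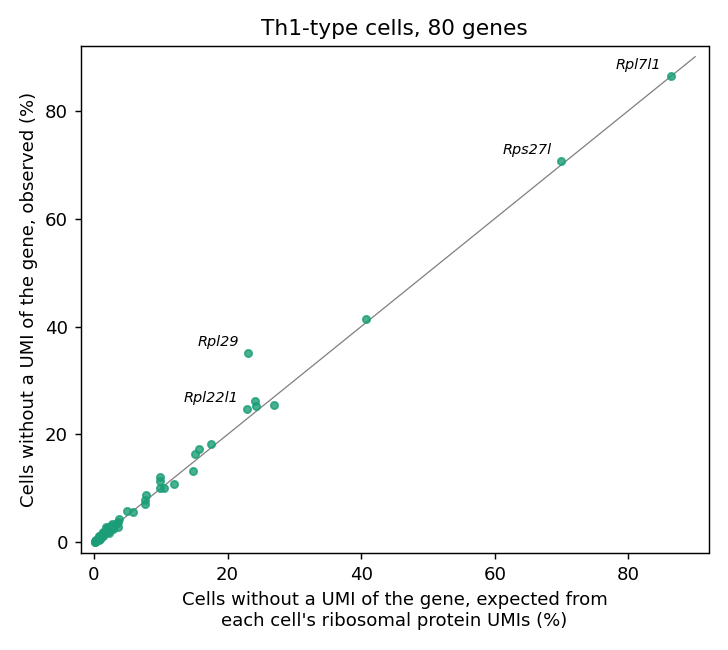
Percent of 3608 Th1-type cells without a UMI of each of 80 members, observed (y axis) and expected when each cell draws the gene in proportion to its ribosomal protein UMIs (x axis); the line marks equality. Rpl29, at 35.0% observed and 23.1% expected, lies furthest above the line.

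Genes that work with the family were read from fixed lists. Of 20 other TOP and translation genes, the median log2 ratio was -0.36 in Foxp3 Tregs and -0.25 in Th1-type cells against naive-type cells, where the median of all genes was 0.24 and 0.25. In each of the 2 comparisons 2 of the 20 were called lower and 0 higher, where 2.61% and 2.68% of all genes were called lower. The elongation factor subunit Eef1b2 was called in both, at 1119 CPM in Foxp3 Tregs and 1180 CPM in Th1-type cells, against 2000 CPM in naive-type cells. Nucleophosmin (Npm1), a nucleolar chaperone, was also called lower in Th1-type cells, at 772 CPM, against 1215 CPM in naive-type cells. In proliferating cells Fau, which encodes the small subunit protein eS30 in a fusion, had a ratio of -0.46. Of the 20 genes Nap1l1 and Hnrnpa1 were called higher, at 1.43 and 0.83, where 13.7% of all genes were called higher.

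Of 30 ribosome biogenesis genes 28 reached 10 CPM. Against naive-type cells, 12.5% and 13.1% of all genes were called higher in Foxp3 Tregs and Th1-type cells, and 2.61% and 2.68% lower. Of the 28 genes, 1 was called higher and 2 lower in each, with list medians of -0.02 and -0.10. Pes1 was higher and Wdr12 lower in both, and these 2 proteins work in 1 complex of large subunit assembly. In proliferating cells Nhp2 and nucleolin (Ncl) were called higher, at 0.82 and 0.60, with 0 called lower. These were 2 of the 28, where 13.7% of all genes were called higher and 5.11% lower. Of 20 regulators of mTOR, Myc and TOP genes, 5 were called higher in Foxp3 Tregs and 4 in Th1-type cells, with 0 lower. The shares of all genes called higher were 12.5% and 13.1%. List medians were 0.11 and 0.24, no higher than those of all genes. Eif4ebp1, an inhibitor of cap-dependent translation, was higher at 41.3 CPM in Foxp3 Tregs and 27.2 CPM in Th1-type cells, against 5.68 CPM in naive-type cells. The Myc antagonists Mxd4 and Mxi1 were also called higher in both, Mxd4 at 185 CPM in Foxp3 Tregs and 169 CPM in Th1-type cells, against 78.9 CPM in naive-type cells. Mxi1 and Pes1 stood at 9.56 and 21.2 CPM in naive-type cells. The naive-type sums of hashtags 1, 3 and 4 held 120533, 154569 and 139147 UMIs. At the naive-type levels of Eif4ebp1, Mxi1 and Pes1 the ratios there rest on few UMIs, and their size is uncertain.

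Mitochondrial ribosomal protein genes had other values from those of the cytosolic family. Their median log2 ratio was 0.23 in Foxp3 Tregs and 0.16 in Th1-type cells against naive-type cells, close to the 0.24 and 0.25 of all genes, with 5 of 74 called higher and 0 lower in each, where 12.5% and 13.1% of all genes were called higher. In proliferating cells 21 of 75 were called higher and 0 lower, where 13.7% of all genes, and 21.7% of those at 100 CPM or more, were called higher, with a median of 0.50 beside 0.10 for all genes and -0.21 for the cytosolic family. Mrpl18 at 1.20, Mrpl27 at 1.08 and Mrpl51 at 1.06 had the largest differences. Among the 11 mitochondrially encoded genes compared 0 were called in any of these 3 comparisons.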

How the data were processed

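The 2 deposited libraries are a single-cell 3′ expression library and its hashtag library. The deposited values of both are unnormalised counts of UMIs for each gene or tag in each barcode. Per the file headers the matrices came from cellranger 4.0.0. Version 6.0 of Cell Ranger, Seurat 3 and the mm10 build are named in the submitters' processing notes, and the annotation behind the counts was not given in the sources used here. Reads shared with a pseudogene may have been dropped or moved, so levels of single members are uncertain to that extent.

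Of 22960 expression barcodes, 22952 were in the hashtag library. HTODemux (Seurat 5.3.0, R 4.3.3, quantile 0.99) gave 14879 singlets, 5804 doublets and 2269 without a call; doublets of 1 hashtag stay in. Counts were summed per hashtag and gate, using at least 20 cells, with Python 3.11.15, numpy 2.4.6, scipy 1.17.1 and pandas 2.3.3. Log2 ratios of CPM used a prior count of 0.5, and medians were taken over hashtags. The calculation was tested on simulated data. Barcodes outside the T gate numbered 2263, 814 of which were removed through Pecam1, a marker that naive T cells also carry.

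Members, gates and lists were chosen with earlier results of these data known. Genes named are the 6 highest and 6 lowest members of a comparison among those with 1 sign in every hashtag, the 5 most abundant, the paralogs, members called between hashtags, and up to 3 genes of each other list; a few genes that the rule selects are not reported here. Alternatives were another hashtag call, cell filter, depth, denominator, gate, scaling and low-count filter, and each hashtag left out.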

Additional observations from a re-analysis of the deposited data

Results flagged for a closer look

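The expression table also lists 319 ribosomal protein pseudogene entries, which the rule for the family leaves out. Of these 237 had a UMI in T cells, 48606 UMIs in all, or 0.13% of T cell UMIs. The largest were Rps23-ps1 with 4796 UMIs and Rpl9-ps6 with 4230. Over the 26 or 27 entries at 10 CPM or more the median log2 ratio against naive-type cells was -0.56 in Foxp3 Tregs and -0.40 in Th1-type cells, beside -0.57 and -0.51 for the family. Whether these UMIs come from the pseudogenes or from the parent genes was not tested.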

How the results depend on the processing

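Gates were compared within each hashtag. No analysis paired by animal or replicate was possible because the data are 1 pooled library and the hashtags carry no replicate number. Among the named genes, no called value changed sign under any alternative run. A call needs 1 sign in every hashtag used, so runs that only drop hashtags could not reverse it. Of 978 values of named genes 296 moved beyond their spread, and of 124 share ratios and counts 59 stayed within their interval or 1.5 times.

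Share ratios (log2) are given in the order Foxp3 Treg against naive-type, Th1-type against naive-type, ST2 Treg against Th1-type, and proliferating against non-proliferating cells. They were -0.63, -0.51, -0.10 and -0.20 with the raw top tag, -0.65, -0.57, -0.11 and -0.26 with a stricter cell filter, -0.72, -0.57, -0.17 and -0.37 after thinning, and -0.70, -0.61, -0.12 and -0.24 with stricter gates. Without mitochondrial UMIs the Th1-type ratio was -0.51 and the proliferating one -0.22. Leaving out 1 hashtag gave -0.63 to -0.49, -0.55 to -0.51, -0.09 to -0.09 and -0.23 to -0.22.

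Under the alternatives, calls over all genes were counted only for the scaling, so other counts of members have no such share beside them. Members called against naive-type cells numbered 58 for Foxp3 Tregs and 70 for Th1-type cells with median-of-ratios scaling. For Th1-type cells they numbered 31 after thinning and 35 with stricter gates. Leaving out 1 hashtag gave 15 to 48 for Foxp3 Tregs and 20 to 31 for Th1-type cells, 31 without hashtag 5. ST2 Tregs had 1 member called with no filter on low values and 0 when any 1 hashtag was left out. Proliferating cells had 4 with the stricter cell filter, 10 after thinning, 7 with stricter gates, 8 with median-of-ratios scaling, 5 with no filter on low values and 2 to 4 with 1 hashtag left out, 4 without hashtag 2.

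The log2 range of shares over hashtags was 0.22 in naive-type, 0.23 in Th1-type and 0.49 in ST2 Treg cells. It was 0.19 in naive-type and 0.51 in ST2 Treg cells with the raw top tag, 0.17, 0.20 and 0.51 with the stricter filter, 0.17, 0.27 and 0.18 after thinning, and 0.091, 0.19 and 0.46 with stricter gates. The thinned ranges cover other hashtags than before. ST2 Tregs of hashtag 6, the highest at 33.8% before, had under 20 cells and dropped out. Naive-type cells of hashtag 2 reached 29 cells and entered.

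Chosen after seeing the data were a minimum of 50 cells and a T gate without Pecam1. The first gave -0.35 and 1 member for Foxp3 Tregs, -0.51 for Th1-type cells, and -0.14 and 8 members for proliferating cells, where only hashtag 1 remained. The second gave -0.083 for ST2 Tregs, and -0.25 and 4 members for proliferating cells. The causes were not tested. Among members at 10 CPM or more, depth limits Rps27l and Rpl7l1 most, with 10 or 11 Rps27l UMIs in the smallest naive-type sums.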

Other observations

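Per hashtag, barcodes outside the T gate had ribosomal shares of 23.4%, 20.2%, 22.3%, 23.8%, 34.5% and 35.2% in hashtags 1 to 6. Their summed markers include B cell, macrophage, endothelial and stromal genes, with Dcn at 808 CPM and Gpihbp1 at 270 CPM, and Cd3e was present in 73.8% of them.

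The summed level of the 19 other-cell markers inside the gates was 38.7 to 85.8 CPM in proliferating cells, 70.4 to 113 CPM in ST2 Tregs, 93.2 to 118 CPM in Th1-type cells and 99.7 to 124 CPM in naive-type cells. Its part in the differences of ribosomal share was not tested.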
